A study of Homo sapiens with 8 samples.

Results

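The genes described here are 55 genes of G2 and mitosis, taken as a list of symbols that share this function. They comprise the cyclins and phosphatases of mitotic entry, mitotic kinases, kinesins, and proteins of the kinetochore, the spindle checkpoint, the spindle and the cleavage furrow. All 55 were found among the 23228 genes listed, and all 55 were among the 13694 genes with enough counts to be tested.

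Genes of this kind are silent early in the cell cycle and are transcribed in a wave that rises after S phase and peaks in G2 and mitosis. Cyclin B with CDK1 starts mitosis, Aurora and Polo-like kinases build the spindle, and checkpoint proteins delay anaphase until every chromosome is attached. The ubiquitin ligase APC/C then marks cyclin B and securin for destruction, and the cell divides. Many of these promoters carry the cell cycle genes homology region (CHR) close to the start of transcription, which binds the MuvB complex, and CCAAT boxes, which bind NF-Y. MuvB acts as a repressor within the DREAM complex, which forms when the CDK inhibitor p21 is abundant, and as an activator together with MYBL2 and FOXM1.

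RNA-seq was performed on BT-549, an established triple negative breast cancer (TNBC) cell line, in 4 groups of 2 libraries each, 8 in all. Vehicle cells received DMSO, and the other groups received 100 nM EC359, an inhibitor of the leukemia inhibitory factor receptor (LIFR), 10 µM vorinostat (SAHA), an inhibitor of histone deacetylases (HDACi), or both agents at these doses. All cells were of this 1 line, were grown in RPMI medium with serum and were collected after 24 h. The labels do not say whether the libraries of a group came from separate cultures, so p-values measure only the spread between these libraries, which may be technical.

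Each library held 19069450 to 24759041 counts on genes. Of the mesenchymal markers, VIM had 44019 to 184896 counts per library, FN1 36525 to 89834, AXL 3188 to 14257, ZEB1 840 to 5046 and CDH2 487 to 957. Of the genes expected to be low in this line, ESR1 had 0 to 20, PGR 0 to 1, CDH1 1 to 43 and EPCAM 3 to 83. ERBB2, also expected to be low, had 235 to 2184, a range that overlapped those of CDH2 and ZEB1. The leukocyte gene PTPRC had 0 to 15. The EC359 libraries stood apart from each other more than those of the other groups. Across the 55 genes, library 2 differed from library 1 of a group on the log2 scale with a standard deviation (SD) of 0.314 for EC359, 0.166 for the combination, 0.106 for vehicle and 0.0621 for vorinostat. The widest such difference was -0.88 on the log2 scale, for PTTG1 with EC359. The difference between libraries was also set against exon length. For the 28 genes with at least 4454 bases of exons its median was -0.28 for EC359, -0.12 for vehicle, 0.037 for vorinostat and 0.0045 for the combination, and for the 27 shorter genes it was -0.02, -0.02, -0.0056 and 0.013. PTTG1, with 1975 bases, is among the shorter genes. The median log2 fold change with EC359 against vehicle was -0.49 for the shorter genes and -0.23 for the longer ones. For vorinostat against vehicle it was -0.74 and -0.80, and for the combination against vehicle -1.125 and -1.191. For the combination against vorinostat it was -0.476 and -0.340, and against EC359 -0.784 and -0.868. The part of the differences between libraries in these results was not tested.

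The abundance of the whole set fell from group to group. Values per library are CPM, a gene's count scaled to a common library size with the TMM factors, and are given for library 1 and then library 2 of a group. The 55 genes together took 13723 and 12983 CPM in the vehicle libraries, 11554 and 10072 with EC359, 7982 and 8080 with vorinostat, and 6232 and 6150 with the combination. No groups overlapped in this sum, and against the vehicle mean it stood at 81.0% under EC359, 60.2% under vorinostat and 46.4% under both agents. In bulk RNA a smaller share of cells in G2 or mitosis and less of each mRNA per cell cannot be told apart, nor can a change of total RNA per cell be seen in values scaled to the library.

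Gene by gene, the order vehicle, EC359, vorinostat, combination from the highest to the lowest mean held for 37 of the 55 genes. The combination had the lowest mean in 46 genes, EC359 in 4, vorinostat in 4 and vehicle in 1, which was UBE2S. Neither the order nor the lowest group was counted over all tested genes, so no background share stands beside these counts. Genes were said to have passed at an adjusted p under 0.01 in the quasi-likelihood test of edgeR, with Benjamini-Hochberg adjustment over all 13694 tested genes.

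**Figure D1:**
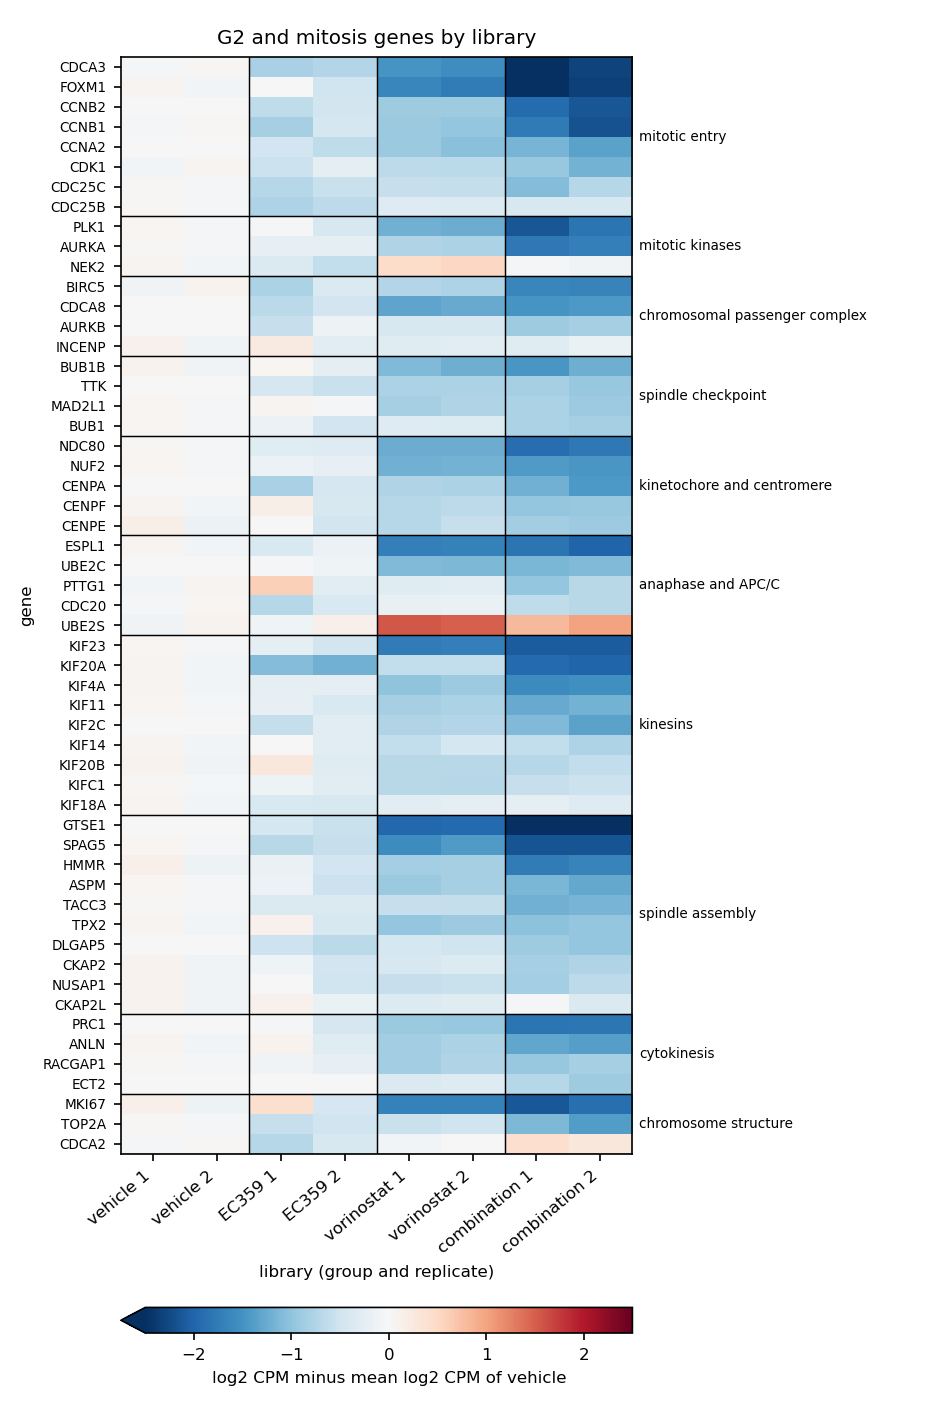
Log2 CPM of each of the 55 genes in each of the 8 libraries, less the mean log2 CPM of the vehicle libraries, with genes in rows by role and sorted within a role by the combination. Blue is below vehicle, red is above it, and values under -2.5 share the darkest blue. UBE2S is the 1 gene that is red in both vorinostat and both combination libraries, and 37 genes darken in the order EC359, vorinostat, combination.

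EC359 alone lowered 10 of the 55 genes and raised none, where 4.01% of all tested genes were lowered and 3.81% raised. The median log2 fold change of the set was -0.31, against -0.02 for all tested genes. The 10 genes were CCNA2, CCNB2, CDC25B, CDCA3, CDCA8, TTK, KIF20A, SPAG5, DLGAP5 and TOP2A, and KIF20A was the 1 gene lowered by more than 2-fold, a size reached by 1.72% of all tested genes. Both EC359 libraries lay below both vehicle libraries in 38 genes, which 28.8% of all tested genes did, and the groups overlapped in the other 17. The count of 10 rested on the libraries used. It was 1 and 2 without vehicle library 1 or 2, 26 and 22 without EC359 library 1 or 2, 3 and 3 without vorinostat library 1 or 2, and 5 and 5 without combination library 1 or 2. KIF20A was the 1 gene of the 10 that passed in all 17 alternative analyses.

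Vorinostat lowered 43 genes, 13 of them by more than 2-fold, and raised 2, NEK2 and UBE2S. Of all tested genes, 25.9% were lowered, 13.3% were lowered by more than 2-fold and 26.2% were raised. The median log2 fold change was -0.77, against 0.03 for all tested genes. The vorinostat libraries lay below both vehicle libraries in 52 genes, against 43.6% of all tested genes, and above them in NEK2 and UBE2S, against 45.3% of all tested genes. CDCA2 was the gene in which the groups overlapped. Of the 43 genes, 31 passed in all 17 alternative analyses, and of the 2 raised genes UBE2S did.

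The combination lowered 48 genes against vehicle, 30 of them by more than 2-fold, and raised UBE2S. Of all tested genes, 26.7% were lowered, 15.3% were lowered by more than 2-fold and 29.7% were raised. The median log2 fold change of the set was -1.18, a median fold of 0.443, while that of all tested genes was 0.07. The combination libraries lay below vehicle in 51 genes, against 41.3% of all tested genes. The genes that did not pass were NEK2, INCENP, PTTG1, KIF18A, CKAP2L and CDCA2, and 44 of the 48 that passed did so in all 17 alternative analyses.

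Adding EC359 to vorinostat lowered 20 genes and raised none, where 5.26% of all tested genes were lowered and 8.45% raised. The median log2 fold change was -0.42, against -0.01 for all tested genes. CCNB1, CCNB2 and KIF20A were lowered by more than 2-fold, which 0.876% of all tested genes were. The combination libraries lay below the vorinostat libraries in 46 genes (36.7% of all tested genes), above them in KIFC1 and CDCA2 (36.2% of all tested genes), and overlapped in 7. This count also depended on the libraries used. It was 33 when EC359 library 1 or 2 was left out, 14 when vehicle library 1 or 2 was left out, 3 and 4 without vorinostat library 1 or 2, and 6 and 8 without combination library 1 or 2. AURKA, CCNB2 and KIF20A passed in all 17 alternative analyses.

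Adding vorinostat to EC359 lowered 44 genes, 21 of them by more than 2-fold, and raised CDC25B, NEK2, UBE2S and CDCA2. CDC25B and NEK2 each failed to pass as raised in 11 of 17 alternative analyses, while UBE2S and CDCA2 passed in all of them. Of all tested genes, 26.3% were lowered, 13.9% were lowered by more than 2-fold and 29.5% were raised. The 17 genes that passed as lower in the combination than in each of the other groups were AURKA, BIRC5, CCNB1, CCNB2, CDCA3, ECT2, FOXM1, GTSE1, HMMR, KIF20A, KIF4A, NDC80, PLK1, PRC1, SPAG5, TACC3 and TOP2A, and 2.65% of all tested genes met this rule. With EC359 library 1 or 2 left out 30 genes met it, with vehicle library 1 or 2 left out 14, with vorinostat library 1 or 2 left out 3 and 4, and with combination library 1 or 2 left out 6 and 8.

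The promoters of these genes were read from RefSeq (GRCh38.p14), from 250 bases before to 50 bases after the start of transcription, to show what the set shares in sequence. An entry was found for 47 of the 55 genes, the others being AURKA, BIRC5, CDCA2, FOXM1, RACGAP1, TPX2, TTK and UBE2C. The CHR letters searched were TTTGAA, its reverse complement TTCAAA, and TTCGAA, which is its own reverse complement, so both strands were covered. Within the 100 bases around the start, 29 of the 47 promoters (61.7%) held them, against 5.05% of the 27305 promoters of all genes and 3.14% of those of tested genes. The 34 matches began between -47 and 40 bases from the start, with a median of -13.5, and 13 lay after it. CCAAT or its reverse complement ATTGG was present at least once in 76.6% of the promoters and at least 2 times in 44.7%, against 35.7% and 11.3% of all promoters. CHR letters near the start together with CCAAT were found in 51.1%, against 2.04% of all promoters. A match is a description of letters and not evidence of binding.

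As examples, 30 bases around the CHR letters are printed for 1 gene of each role. Each is the gene of its role with the most negative change under the combination among those with a match near the start. The windows are lined up on the CHR letters, so their likeness there follows from the choice, and that of the other bases was not measured. The genes were therefore chosen after their values were seen. Capitals mark the CHR letters, of which NDC80 holds 2 adjoining matches, and each line reads in the direction of transcription.
CDCA3, mitotic entry, chr12:6851272-6851301, minus strand: cgtggcgggaagTTTGAAactggtaacttc
PLK1, mitotic kinases, chr16:23678848-23678877, plus strand: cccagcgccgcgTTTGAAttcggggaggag
CDCA8, chromosomal passenger complex, chr1:37692481-37692510, plus strand: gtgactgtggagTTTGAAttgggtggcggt
BUB1B, spindle checkpoint, chr15:40161034-40161063, plus strand: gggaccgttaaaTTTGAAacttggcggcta
NDC80, kinetochore, chr18:2571542-2571571, plus strand: ccggcggagaatTTCAAATTCGAAcggctt
ESPL1, anaphase, chr12:53268256-53268285, plus strand: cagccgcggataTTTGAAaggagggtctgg
KIF4A, kinesins, chrX:70290058-70290087, plus strand: ctccgggacggaTTTGAAacttggcggtta
GTSE1, spindle assembly, chr22:46296832-46296861, plus strand: ctcggagcccttTTCAAAccgaccaatcgg
PRC1, cytokinesis, chr15:90994538-90994567, minus strand: cccgtggcgcggTTTGAAattttgcggggc
MKI67, chromosome structure, chr10:128126453-128126482, minus strand: ttagcgccagaaTTTGAAtcttcgttttcg

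The whole 300 bases are printed for the 2 genes at the ends of the range under the combination, GTSE1 with the most negative change and UBE2S with the most positive, and for CCNB1 and KIF2C, which the study followed by RT-qPCR. Capitals mark CHR letters and CCAAT or ATTGG.
GTSE1, chr22:46296620-46296919, plus strand: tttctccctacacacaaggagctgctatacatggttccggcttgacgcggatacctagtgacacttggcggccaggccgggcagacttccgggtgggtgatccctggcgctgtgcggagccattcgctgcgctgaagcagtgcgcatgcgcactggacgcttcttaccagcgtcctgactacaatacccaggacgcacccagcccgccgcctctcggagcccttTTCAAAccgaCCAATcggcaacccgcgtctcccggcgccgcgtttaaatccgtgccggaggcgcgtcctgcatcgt
UBE2S, chr19:55407739-55408038, minus strand: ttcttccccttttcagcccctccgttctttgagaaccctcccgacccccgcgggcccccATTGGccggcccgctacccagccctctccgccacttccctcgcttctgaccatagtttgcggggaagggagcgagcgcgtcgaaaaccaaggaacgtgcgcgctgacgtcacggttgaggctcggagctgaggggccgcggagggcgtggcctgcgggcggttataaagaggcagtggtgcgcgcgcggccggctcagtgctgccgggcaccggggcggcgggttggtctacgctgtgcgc
CCNB1, chr5:69166900-69167199, plus strand: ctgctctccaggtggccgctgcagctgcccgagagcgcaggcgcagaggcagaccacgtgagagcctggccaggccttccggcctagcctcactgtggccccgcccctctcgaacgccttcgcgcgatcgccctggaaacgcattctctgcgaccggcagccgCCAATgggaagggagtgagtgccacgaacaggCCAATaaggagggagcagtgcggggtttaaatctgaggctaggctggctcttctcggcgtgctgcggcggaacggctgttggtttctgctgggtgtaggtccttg
KIF2C, chr1:44739587-44739886, plus strand: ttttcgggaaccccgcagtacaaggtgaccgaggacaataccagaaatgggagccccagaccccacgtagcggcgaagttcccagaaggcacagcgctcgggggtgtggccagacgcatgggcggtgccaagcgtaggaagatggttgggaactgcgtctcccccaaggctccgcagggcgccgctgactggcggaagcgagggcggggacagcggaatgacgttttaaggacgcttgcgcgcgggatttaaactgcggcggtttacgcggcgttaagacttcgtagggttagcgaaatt

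UBE2S held no CHR letters in these 300 bases and 1 ATTGG, and NEK2, the other gene raised by vorinostat, held no CHR letters and 2 matches to CCAAT or ATTGG. CCNB1 and KIF2C held none of the CHR letters searched, and both held TTTAAA, which begins at -30 in CCNB1 and at -3 in KIF2C. TTTAAA was added to the search after these promoters were seen. It lay within the 100 bases around the start in 14.9% of the 47 promoters, against 3.47% of all promoters, and CHR letters or TTTAAA were found there in 72.3%, against 8.13%. The 5 genes with TTTAAA and no CHR letters near the start were ASPM, CCNB1, KIF20A, KIF2C and PTTG1. Most genes without CHR letters were also lowered. The combination lowered 26 of the 29 genes with CHR letters near the start and 15 of the 18 without, where 26.7% of all tested genes were lowered. The median log2 fold change under the combination was -1.33 for these 29 genes and -0.98 for these 18, and with EC359 alone it was -0.23 and -0.40. These counts and medians are a description with no test.

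**Figure D2:**
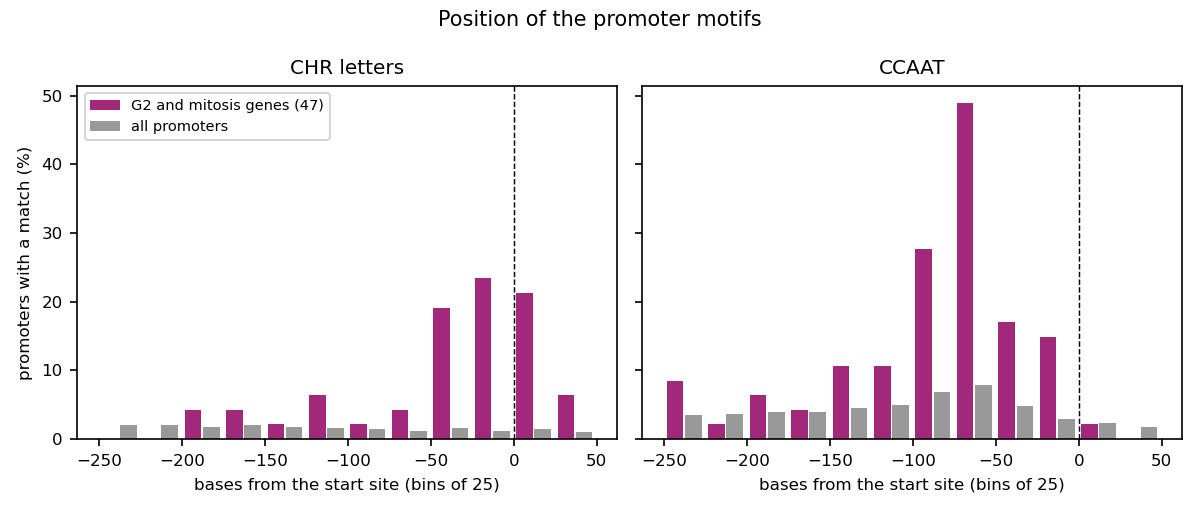
Share of promoters with CHR letters (left) or CCAAT (right) that begin in each bin of 25 bases, in percent, against the distance from the start of transcription, for the 47 promoters of the G2 and mitosis genes (purple) and for all 27305 promoters (grey). The CHR letters of the set gather within 50 bases of the start and its CCAAT matches between 100 and 50 bases before it.

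The 8 genes of mitotic entry all passed as lower with vorinostat and with the combination, with median log2 fold changes of -0.92 and -1.61. EC359 alone lowered CCNA2, CCNB2, CDC25B and CDCA3, and adding EC359 to vorinostat lowered CCNB1, CCNB2, CDCA3 and FOXM1. CDCA3, which promotes the destruction of the CDK1 inhibitor WEE1, is at chr12:6953957-6960456 (all gene positions are on hg19). It stood at 86.7 and 89.8 CPM in vehicle, 50.0 and 53.3 with EC359, 31.7 and 29.9 with vorinostat, and 14.4 and 17.7 with the combination. The 4 groups formed 4 separate steps, and CDCA3 was 0.182 of vehicle under the combination (log2 fold change -2.46, standard error (SE) 0.12, adjusted p = 3.8e-07 by edgeR). CCNB1, cyclin B1, the partner of CDK1 (chr5:68462962-68474072), showed 475 and 500.5 CPM in vehicle, 275 and 359.9 with EC359, 257 and 249 with vorinostat, and 143 and 108 with the combination. Both EC359 libraries lay below vehicle, and the change of -0.62 (SE 0.15) did not pass (adjusted p = 0.024 by edgeR). Against vorinostat the combination lowered CCNB1 by 2-fold, a log2 fold change of -1.01 (SE 0.15, adjusted p = 0.0019), and against vehicle by -1.96.

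Other genes of mitotic entry moved by unequal amounts. CCNB2, cyclin B2, fell by 0.54 on the log2 scale with EC359, by 0.89 with vorinostat and by 2.03 with the combination. FOXM1, a transcription factor that activates G2 genes, fell by 1.69 with vorinostat and by 2.41 with the combination, while its change with EC359 was -0.24 (SE 0.15) and the EC359 and vehicle libraries overlapped. CDC25B, a phosphatase that activates CDK1 (chr20:3767419-3786768), gave the highest CPM of these genes, with 625 and 596 in vehicle, 358 and 389 with EC359, 491 and 481 with vorinostat, and 461 and 465 with the combination. Its EC359 libraries were the lowest of the 8, with a log2 fold change of -0.71 (SE 0.081, adjusted p = 0.00046 by edgeR) against vehicle. With vorinostat present EC359 gave -0.07 (SE 0.080), and the combination against EC359 alone gave 0.31, a value that passed here but not in 11 of 17 alternative analyses. CCNA2 (cyclin A2), CDK1 and CDC25C ended under the combination at 0.419, 0.479 and 0.540 of vehicle.

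**Figure D3:**
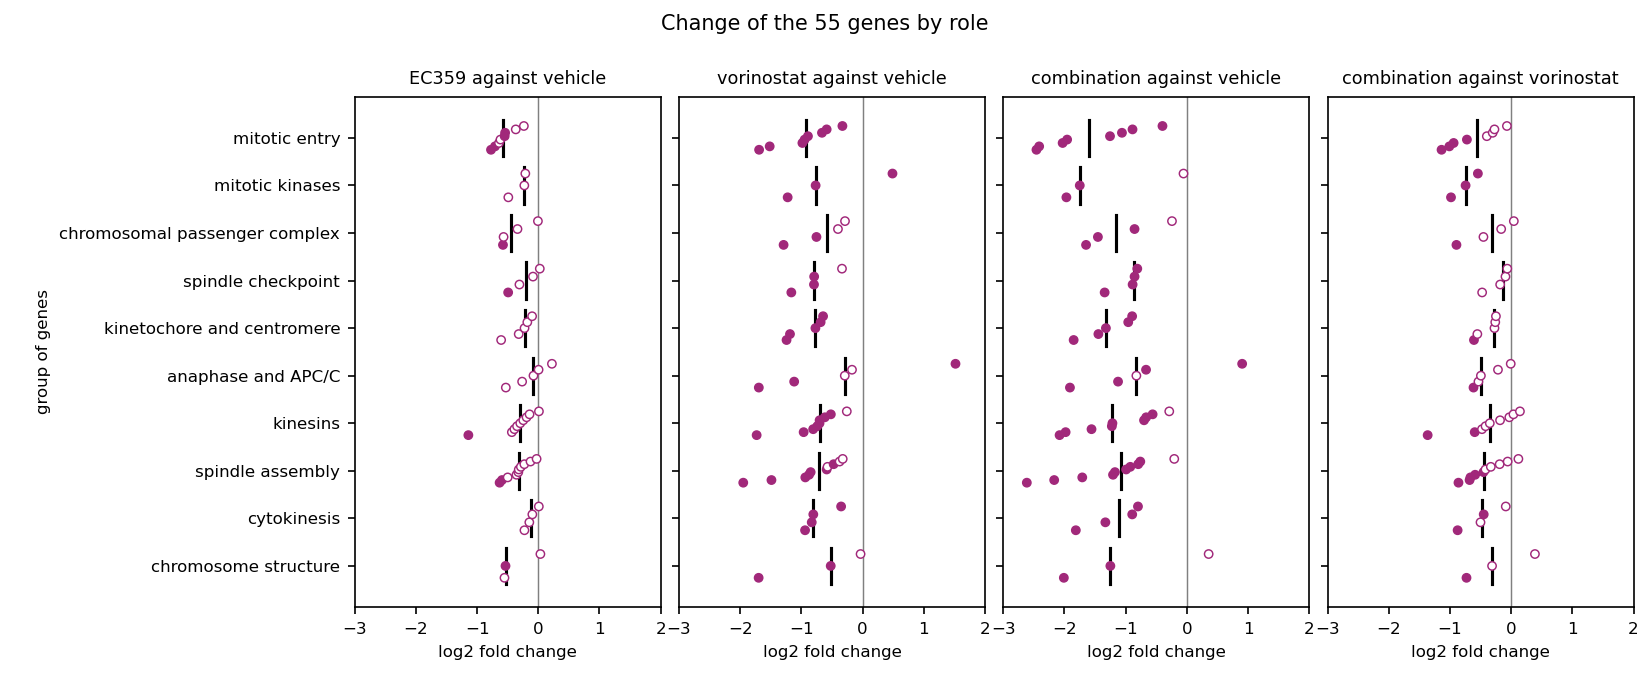
Log2 fold change of each of the 55 genes (points) by role, in 4 comparisons. Filled points passed an adjusted p of 0.01, open points did not, and black bars are medians. The median of every role lies below 0 in all 4 comparisons, and UBE2S and NEK2 are the filled points above 0 with vorinostat.

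AURKA, Aurora kinase A, which matures centrosomes and builds the spindle (chr20:54944445-54967393), was the 1 member whose response to EC359 differed with vorinostat by the test of the interaction. It stood at 365 and 354 CPM in vehicle, 309.9 and 304 with EC359, 214 and 208 with vorinostat, and 104 and 109 with the combination. No groups overlapped, and libraries of a group lay close together. EC359 gave a log2 fold change of -0.23 (SE 0.080) without vorinostat, which did not pass, and of -0.98 (SE 0.081, adjusted p = 6.3e-05 by edgeR) with it. The difference was -0.75 (SE 0.11, adjusted p = 0.0059 by edgeR), 0.593 of the level that the sum of the single changes on the log2 scale would give. Of all tested genes, 0.482% passed below that sum and 1.62% above it. The interaction of AURKA no longer passed when 1 of the vehicle, vorinostat or combination libraries was left out, with adjusted p from 0.023 to 0.053 and the difference between -0.74 and -0.85, nor with the replicate number as a block (-0.75, adjusted p = 0.016).

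The other mitotic kinases were PLK1 and NEK2. PLK1, a Polo-like kinase needed for spindle assembly and cytokinesis (chr16:23688977-23701688), showed 328 and 305 CPM in vehicle, 306 and 240.3 with EC359, 137 and 134 with vorinostat, and 72.2 and 89.6 with the combination. EC359 and vehicle libraries overlapped, whereas vorinostat lowered PLK1 to 0.428 and the combination to 0.255 of vehicle (log2 fold change -1.97, SE 0.14, adjusted p = 2.8e-06 by edgeR). NEK2, a kinase that splits the centrosomes (chr1:211831999-211848972), stood at 73.2 and 65.9 CPM in vehicle, 53.9 and 45.0 with EC359, 95.8 and 99.3 with vorinostat, and 68.4 and 65.5 with the combination. Vorinostat raised it by 0.49 on the log2 scale (SE 0.11, adjusted p = 0.0040), and adding EC359 to vorinostat lowered it by 0.54 (adjusted p = 0.0075), so that the combination and vehicle libraries overlapped. The rise of NEK2 with vorinostat did not pass in 4 of the 17 alternative analyses, where its adjusted p reached 0.053.

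The chromosomal passenger complex, which corrects faulty attachments of chromosomes and guides cytokinesis, is made of the kinase AURKB and the proteins BIRC5, CDCA8 and INCENP. The combination lowered AURKB, BIRC5 and CDCA8, vorinostat lowered BIRC5 and CDCA8, and EC359 lowered CDCA8. BIRC5, survivin (chr17:76210267-76221717), had 157 and 176 CPM in vehicle, 96.1 and 129 with EC359, 99.8 and 98.0 with vorinostat, and 54.0 and 52.5 with the combination. The combination libraries were the lowest, at 0.319 of vehicle (log2 fold change -1.65, SE 0.14, adjusted p = 7.7e-06 by edgeR) and 0.538 of vorinostat alone. INCENP, the scaffold of the complex (chr11:61891470-61920641), did not pass in any comparison. It stood at 164 and 142 CPM in vehicle, 177 and 127 with EC359, 123 and 128 with vorinostat, and 123 and 136 with the combination, with a log2 fold change under the combination of -0.24 (SE 0.15).

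The 4 genes of the spindle checkpoint all passed as lower under the combination, with a median log2 fold change of -0.87. None passed as lower in the combination than with vorinostat alone, where the median was -0.14. BUB1B, which makes BUBR1, an inhibitor of the APC/C (chr15:40453224-40513324), showed 181 and 159 CPM in vehicle, 176 and 144 with EC359, 78.6 and 73.2 with vorinostat, and 61.8 and 72.3 with the combination. Vehicle and EC359 overlapped, and the libraries with vorinostat lay apart from both (combination against vehicle -1.34, SE 0.13, adjusted p = 1.9e-05 by edgeR). BUB1, a kinase of the outer kinetochore (chr2:111395105-111435640), gave 214 and 201 CPM in vehicle, 186 and 148 with EC359, 165 and 163 with vorinostat, and 119 and 117 with the combination. Vorinostat alone gave -0.34 (SE 0.11, adjusted p = 0.026) for BUB1, which did not pass, and the combination lowered it by 0.81. TTK, the kinase MPS1 that starts the checkpoint signal, fell by 0.49 with EC359 and by 0.89 with the combination. MAD2L1, which holds the APC/C activator CDC20, gave a log2 fold change of 0.02 with EC359 and fell by 0.85 with the combination.

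All 5 genes of the kinetochore and centromere were lowered by vorinostat and by the combination, and none passed with EC359 alone. Their median log2 fold changes were -0.77, -1.32 and -0.22 in that order. NDC80, the microtubule-binding protein HEC1 of the kinetochore (chr18:2571556-2616634), stood at 149 and 143 CPM in vehicle, 118 and 116 with EC359, 61.9 and 61.7 with vorinostat, and 39.0 and 42.1 with the combination. It fell in separate steps, to 0.277 of vehicle under the combination (log2 fold change -1.85, SE 0.091, adjusted p = 3.5e-07 by edgeR), and was the 1 gene of this role that passed as lower than with vorinostat alone (-0.61, adjusted p = 0.0016). CENPF, a large protein of the outer kinetochore (chr1:214776528-214837917), had 447 and 402 CPM in vehicle, 468 and 323 with EC359, 258 and 269.9 with vorinostat, and 218 and 219 with the combination. CENPE, a kinesin that moves chromosomes to the spindle equator (chr4:104026506-104119602), had 169 and 139, 153 and 111, 93.9 and 103, and 83.7 and 82.2 CPM in the same groups. In both genes, which are among the longer transcripts, the EC359 and vehicle libraries overlapped, and the combination changed them by -0.96 (SE 0.15) and -0.89 (SE 0.16). CENPA, the histone H3 variant of centromeres, and NUF2, the partner of NDC80, ended at 0.400 and 0.367 of vehicle.

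UBE2S, the ubiquitin-conjugating enzyme that extends ubiquitin chains for the APC/C (chr19:55911113-55919156), went against the rest of the set. It stood at 61.9 and 70.5 CPM in vehicle, 61.2 and 71.7 with EC359, 194 and 186 with vorinostat, and 116 and 132 with the combination. Vehicle and EC359 overlapped, and both groups with vorinostat lay above them without overlapping each other. Vorinostat raised UBE2S to 2.87 times vehicle (log2 fold change 1.52, SE 0.12, adjusted p = 6.2e-06 by edgeR) and the combination to 1.87 times. Adding EC359 to vorinostat lowered it by 0.61 (SE 0.12, adjusted p = 0.0051), a call lost in 6 of the 17 alternative analyses with adjusted p up to 0.049. UBE2C, which starts the chains that UBE2S extends, moved the other way. Its level fell to 0.461 of vehicle with vorinostat and to 0.459 with the combination, and the libraries of these groups overlapped at 119 to 123 CPM.

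Other genes of anaphase differed among themselves. ESPL1, separase, the protease that cleaves cohesin (chr12:53662083-53687422), had 98.1 and 88.9 CPM in vehicle, 71.3 and 84.6 with EC359, 28.7 and 29.0 with vorinostat, and 26.4 and 23.4 with the combination. Most of its fall was seen with vorinostat alone, a log2 fold change of -1.70 (SE 0.12, adjusted p = 3.6e-06 by edgeR), and the combination gave -1.91. CDC20, the APC/C activator (chr1:43824652-43828874), stood at 239.7 and 254 CPM in vehicle, 151 and 190.4 with EC359, 218 and 219.5 with vorinostat, and 158 and 153 with the combination. It passed in the combination against vehicle (-0.67, SE 0.11, adjusted p = 0.00063), and the changes of -0.53 with EC359 (adjusted p = 0.013) and -0.17 with vorinostat did not pass. PTTG1, securin, the inhibitor of separase, is uncertain because its pseudogene PTTG3P and its copy PTTG2 are near-identical and were counted as separate genes. It read 115 and 62.4 CPM in the EC359 libraries and did not pass in combination against vehicle (-0.83, SE 0.24, adjusted p = 0.013).

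**Figure D4:**
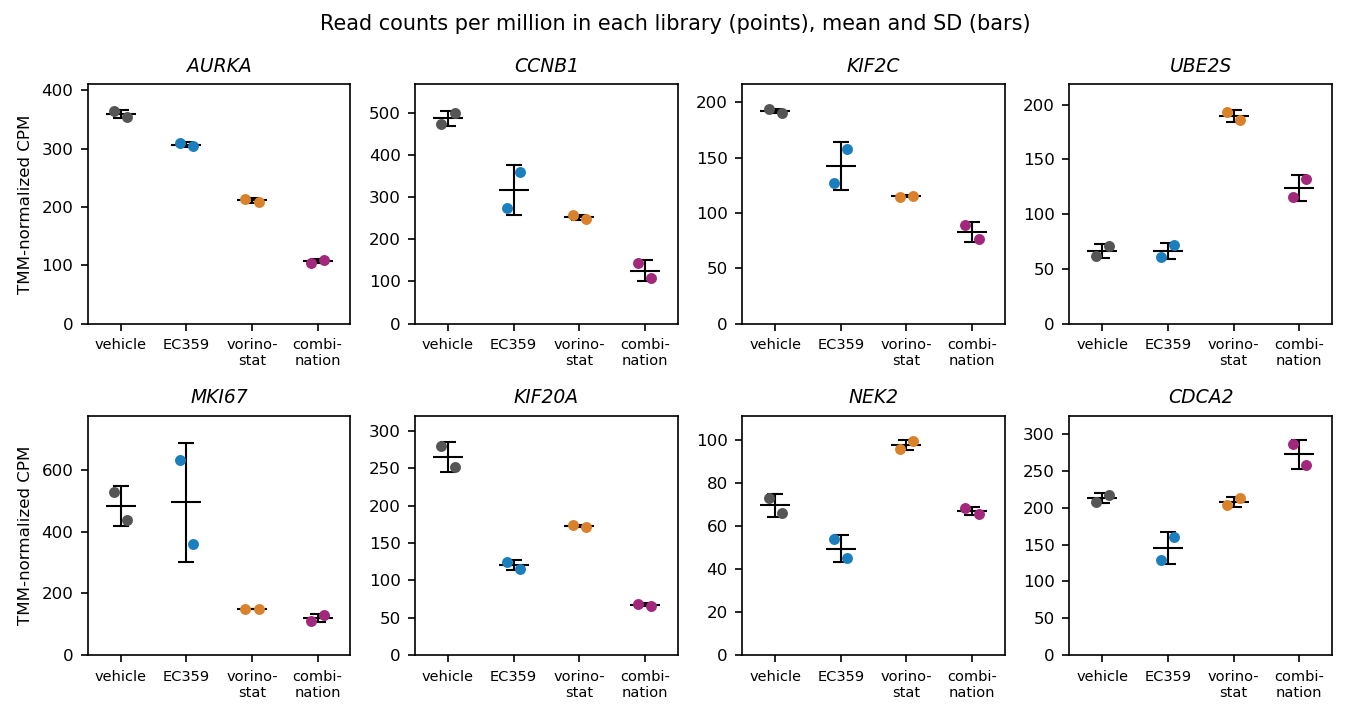
TMM-normalized CPM of 8 of the genes in each library (points), with the mean and SD of the 2 libraries of a group (bars), on axes that start at 0. AURKA, CCNB1 and KIF2C step down from vehicle to the combination, UBE2S and NEK2 are highest with vorinostat, CDCA2 is highest with the combination, and the EC359 libraries of MKI67 lie at 632 and 359.

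Of the 9 kinesins, 8 were lowered by vorinostat and 8 by the combination, with KIF18A the exception in both, and their median log2 fold changes were -0.70 and -1.22. KIF20A, a kinesin of the central spindle (chr5:137514408-137523412), was the member with the largest response to EC359. It stood at 279.7 and 252 CPM in vehicle, 125 and 116 with EC359, 174 and 172 with vorinostat, and 68.7 and 65.8 with the combination. The 4 groups did not overlap, and EC359 alone gave lower values than vorinostat alone. EC359 lowered KIF20A to 0.453 of vehicle (log2 fold change -1.14, SE 0.093, adjusted p = 6.8e-05 by edgeR), and with vorinostat present to 0.388 of vorinostat alone (-1.36, SE 0.095, adjusted p = 2.3e-05). KIF2C, a kinesin that depolymerizes microtubules at centromeres (chr1:45205490-45233439), had 194 and 191 CPM in vehicle, 127 and 158 with EC359, 114 and 116 with vorinostat, and 88.9 and 76.5 with the combination. It fell by 0.74 with vorinostat and by 1.22 with the combination (SE 0.12, adjusted p = 2.2e-05), and its changes with EC359 of -0.43 (adjusted p = 0.039) and of -0.48 in the presence of vorinostat (adjusted p = 0.018) did not pass.

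KIF23, the kinesin of the centralspindlin complex (chr15:69706585-69740766), had the most negative change of the kinesins under the combination. Its values were 178 and 167 CPM in vehicle, 146 and 125 with EC359, 51.3 and 52.5 with vorinostat, and 40.9 and 40.6 with the combination. Most of the fall was present with vorinostat alone, -1.73 against -2.08 with both agents (SE 0.10 and 0.11). Both combination libraries lay below both vorinostat libraries, and the change between these groups, -0.35 (SE 0.10), did not pass (adjusted p = 0.036 by edgeR). KIF11, the bipolar kinesin Eg5 that pushes the spindle poles apart (chr10:94333862-94415152), had 246 and 227 CPM in vehicle, 204 and 182 with EC359, 133 and 137 with vorinostat, and 98.6 and 104 with the combination. It fell to 0.571 of vehicle with vorinostat and to 0.427 with both. KIF18A, which dampens chromosome movements (chr11:28042166-28129703), stood at 103 and 93.3 CPM in vehicle, 75.6 and 73.8 with EC359, 81.0 and 82.9 with vorinostat, and 82.5 and 78.0 with the combination. All 3 treated groups lay below vehicle, none passed, and the combination gave -0.29 (SE 0.093, adjusted p = 0.020 by edgeR). KIF4A, a chromokinesin, fell by 1.56 with the combination, but its near-identical copy KIF4B was counted as a separate gene, so the split of reads between them is uncertain.

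The spindle assembly group held the most negative change of the set and the highest level. GTSE1, a microtubule-binding protein of G2 that also restrains p53 (chr22:46692767-46726707), whose promoter is printed above, stood at 129.9 and 127 CPM in vehicle, 94.4 and 87.2 with EC359, 33.0 and 33.5 with vorinostat, and 19.3 and 22.6 with the combination. The 4 groups formed separate steps, down to 0.163 of vehicle (log2 fold change -2.62, SE 0.11, adjusted p = 1.5e-07 by edgeR), and the combination was below vorinostat alone by 0.67 (adjusted p = 0.0024). TPX2, the activator and spindle anchor of AURKA (chr20:30327074-30389608), gave 1060 and 972 CPM in vehicle, 1087 and 773 with EC359, 522 and 541 with vorinostat, and 501 and 520.0 with the combination. EC359 and vehicle overlapped, vorinostat lowered TPX2 to 0.523 of vehicle, and the combination differed from vorinostat alone by -0.06 (SE 0.14). CKAP2L, a spindle protein (chr2:113493926-113522241), had 94.3 and 82.8 CPM in vehicle, 95.0 and 78.5 with EC359, 70.1 and 71.3 with vorinostat, and 84.8 and 68.6 with the combination, and did not pass in any comparison. Of the other members, SPAG5 (astrin) fell by 2.17 and HMMR by 1.71 under the combination, and TACC3, ASPM, DLGAP5, CKAP2 and NUSAP1 ended between 0.433 and 0.590 of vehicle.

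The 4 genes of cytokinesis passed as lower with vorinostat and with the combination, with median log2 fold changes of -0.82 and -1.11, and none passed with EC359. PRC1, which bundles microtubules of the central spindle (chr15:91509270-91538859), had 232 and 233 CPM in vehicle, 224 and 174 with EC359, 122 and 121 with vorinostat, and 65.7 and 66.7 with the combination. The combination libraries stood at 0.284 of vehicle (log2 fold change -1.81, SE 0.12, adjusted p = 1.7e-06 by edgeR) and at 0.545 of vorinostat alone (adjusted p = 0.0011). ANLN, anillin, the scaffold of the contractile ring (chr7:36429430-36493400), gave 731 and 665 CPM in vehicle, 739.9 and 565 with EC359, 384 and 401 with vorinostat, and 285 and 269 with the combination. It fell to 0.562 of vehicle with vorinostat and to 0.397 with both agents. ECT2, the RhoA exchange factor of the cleavage furrow (chr3:172468472-172539264), had 201 and 205 CPM in vehicle, 204 and 204 with EC359, 157 and 161 with vorinostat, and 124 and 109.7 with the combination. EC359 alone gave a log2 fold change of 0.01 (SE 0.089) for ECT2, and in the presence of vorinostat one of -0.45 (SE 0.090, adjusted p = 0.0067). The difference between these changes, -0.46 (SE 0.13), did not pass (adjusted p = 0.068 by edgeR). RACGAP1, the partner of KIF23 in centralspindlin, ended at 0.538 of vehicle.

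MKI67, the proliferation marker Ki-67 that coats mitotic chromosomes (chr10:129894923-129924687), stood at 529 and 438 CPM in vehicle, 632 and 359 with EC359, 148 and 149.6 with vorinostat, and 110.2 and 129.9 with the combination. Its EC359 libraries lay on either side of vehicle, and it has the longest exons of the set, 12845 bases. Vorinostat lowered it to 0.308 of vehicle (log2 fold change -1.70, SE 0.23, adjusted p = 0.00017 by edgeR) and the combination to 0.248, which differed from vorinostat alone by -0.31 (SE 0.23, adjusted p = 0.33). TOP2A, topoisomerase II alpha, which untangles sister chromatids (chr17:38544777-38574148), had 866 and 838 CPM in vehicle, 573 and 603 with EC359, 583 and 605 with vorinostat, and 391 and 325 with the combination. Each agent alone brought TOP2A to the same range of values, by -0.54 and -0.52 on the log2 scale, and both together to 0.420 of vehicle (-1.25, SE 0.10, adjusted p = 5.2e-06).

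CDCA2, which targets protein phosphatase 1 to anaphase chromosomes (chr8:25316715-25365427), had its highest values under the combination. They were 208 and 218 CPM in vehicle, 129.7 and 161 with EC359, 203 and 213 with vorinostat, and 286 and 259 with the combination. The combination libraries lay above all other libraries and the EC359 libraries below all others. The rise from EC359 alone to the combination passed (log2 fold change 0.91, SE 0.11, adjusted p = 0.00010 by edgeR) in the main analysis and in all 17 alternatives. The rise from vehicle (0.36, adjusted p = 0.020) and from vorinostat alone (0.39, adjusted p = 0.033) did not pass, nor did the difference in the response to EC359 with and without vorinostat (0.94, SE 0.16, adjusted p = 0.011).

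The response to EC359 without vorinostat and that with it share no library and can be set side by side. Across the 55 genes 45 changes were negative in both, and 36 were more negative with vorinostat present. Of the 13694 tested genes, 7141 changes were negative with EC359 alone and 6945 with EC359 added to vorinostat. The change was more negative with vorinostat present in 6643 of them. Neither the number negative in both nor the number that passed as lower in both was counted over all tested genes. No background share therefore stands beside those counts for the set. CCNB2, CDCA3, KIF20A, SPAG5, DLGAP5 and TOP2A passed as lower in both, which is 60.0% of the 10 genes lowered by EC359 alone and 30.0% of the 20 lowered by adding EC359 to vorinostat. Both counts rested on the libraries used, from 1 to 26 and from 3 to 33 with 1 library left out, and KIF20A was the 1 gene that passed in both in all 17 alternative analyses. Pearson's r across the 55 genes was 0.42 and Spearman's rho 0.37. These are descriptions across genes, which are not independent replicates and share library depth and transcript length.

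**Figure D5:**
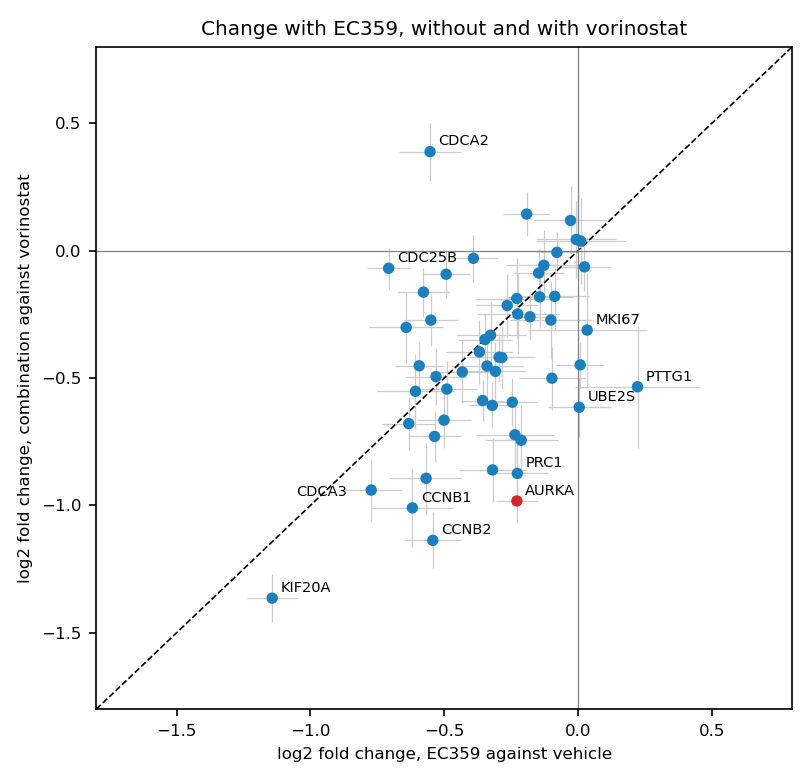
Log2 fold change with EC359 in the presence of vorinostat (combination against vorinostat, vertical) against that without it (EC359 against vehicle, horizontal) for the 55 genes, with SE bars and a dashed line of equal change. KIF20A is the most negative in both, CDCA2 lies alone at the upper left, and AURKA, in red, is the 1 gene whose difference between the responses passed.

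Levels between genes were compared per base of exon, as RPKM, reads scaled to exon length and library size. Exon length joined the exons of all GENCODE transcripts of a gene on GRCh37, while reads were counted over RefSeq genes. The order of levels may therefore depend in part on the annotation. In vehicle the median of the set was 38.6 RPKM. ESPL1 was the lowest at 10.5, and TPX2 the highest at 282, followed by UBE2C at 205, CCNB1 at 200.5, CDC25B at 156 and TOP2A at 134. Under the combination CCNB1 stood at 51.6 RPKM, TPX2 at 142 and UBE2C at 94.0. The exons of 11 of the 55 genes overlap those of another listed gene, in 10 of them on the opposite strand, and whether the counting used strand was not given in the sources used here. The genes of this kind were CCNA2, CDC25C, CDCA3, FOXM1, PLK1, KIF4A, KIF20A, NUSAP1, TACC3, RACGAP1 and, on the same strand, BUB1B. HTSeq set aside 0.65% to 0.85% of the counted and summary reads of a library as ambiguous between genes. Reads in these overlaps may therefore be missing from the counts. Where the RefSeq genes used for counting differ from GENCODE, some may instead belong to the neighbor.

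A further list of 60 genes of G2 and mitosis outside the set held more lowered than raised genes in each comparison. EC359 lowered 4 of them, vorinostat 45, the combination 50 against vehicle and 12 against vorinostat alone, where 4.01%, 25.9%, 26.7% and 5.26% of all tested genes were lowered. The count of 4 with EC359 lay near its background. The numbers raised were 0, 1, 0 and 2, where 3.81%, 26.2%, 29.7% and 8.45% of all tested genes were raised. The median log2 fold changes were -0.22, -0.85, -0.99 and -0.21. The genes of the 4 lowered by EC359 with the largest changes were CENPI, a centromere protein (-0.75), CCNF, cyclin F (-0.55), and FZR1, the APC/C activator of late mitosis (-0.54). With the combination the largest falls were those of LMNB1, lamin B1 (-3.34), SPC24 of the NDC80 complex (-2.77) and the kinase PBK (-2.14). Raised by vorinostat was CDKN3, a phosphatase that acts on CDKs (0.72), and raised by adding EC359 to vorinostat were WEE1, the kinase that holds CDK1 inactive (0.52), and CDC25A, a phosphatase that frees CDKs (0.84). CHR letters lay near the start in 52.0% of the 50 promoters found for this list.

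Of 40 genes of DNA replication, none was lowered or raised by EC359 alone, where 4.01% of all tested genes were lowered and 3.81% raised, and their median log2 fold change was -0.03. Of these genes, 2 were lowered and 3 raised when EC359 was added to vorinostat, with a median of 0.02, where 5.26% of all tested genes were lowered and 8.45% raised. Vorinostat lowered 29 and raised 5, and the combination lowered 26 and raised 3 against vehicle, with medians of -0.78 and -0.71. Of all tested genes, vorinostat lowered 25.9% and raised 26.2%, and the combination lowered 26.7% and raised 29.7%. TYMS, thymidylate synthase, had a log2 fold change of -3.0 with vorinostat and of -3.46 with the combination. None of 35 promoters found for this list held CHR letters near the start. In these promoters CCAAT or ATTGG was present at least once in 57.1% and at least 2 times in 34.3%. No difference between this list and the set was tested.

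Among 13 genes of the DREAM and MuvB complexes and their regulators, none passed with EC359, and vorinostat lowered 8 and raised 2, where 25.9% of all tested genes were lowered and 26.2% raised. The combination lowered 7 and raised 4 against vehicle, where 26.7% of all tested genes were lowered and 29.7% raised. LIN9, a core subunit of MuvB, fell by 1.74 with vorinostat and by 1.52 with the combination, and TFDP1, the partner of E2F factors, by 1.38 and 1.83. The MuvB subunits LIN37, LIN54 and LIN52 were raised by the combination, by 1.84, 1.15 and 1.30, and MYBL2, B-Myb, was lowered by 1.60. CDKN1A, which makes p21, was raised on the log2 scale by 2.58 with EC359, by 5.31 with vorinostat and by 6.01 with the combination, and adding EC359 to vorinostat raised it by 0.70. Its rise with EC359 was thus smaller with vorinostat present. The difference of -1.88 between these responses passed as lower, as did that of 0.482% of all tested genes.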

How the data were processed

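The authors made TruSeq libraries from total RNA of BT-549 cells and read 50 bp from 1 end. Their alignment to hg19 used TopHat2 (2.0.8b per the submitters' processing notes), and HTSeq counted reads over RefSeq genes. Raw gene counts were deposited in 1 file per library and had not been normalized. HTSeq's summary rows were left out, and 11.0% to 14.2% of the counted and summary reads had no gene. All comparison groups come from the sample labels.

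Genes were filtered with filterByExpr and scaled by TMM in edgeR 4.0.16 (R 4.3.3), and the quasi-likelihood model held all 8 libraries, with a mean for each group. P-values were adjusted over the 13694 genes kept. Genes passed at an adjusted p under 0.01, and a 2-fold change also needed an absolute log2 fold change over 1. The SE was taken from the F statistic, as the size of the log2 fold change over the root of F. Counts were also simulated for 8 libraries from the gene means over all 8, with 1 dispersion of 0.0135 for every gene. Of the 13360 genes tested there, 200 were changed by 3-fold in both groups with vorinostat. In vorinostat against vehicle, 99.5% of them were called at more than 2-fold, with 0 false calls. Changes under 2-fold, calls for EC359 and the wider spread of its libraries were not covered by this simulation. Other settings were DESeq2 1.42.0, RLE and total-count scaling, other filters and thresholds, a replicate block, fits on 2 groups and leaving out each library.

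The 55 genes and the other lists came from general knowledge and were chosen with earlier results of these data known. Values per library are given for genes the study names, for the genes of each role with the highest mean CPM and the most negative and most positive change under the combination, and for genes that passed in the interaction. Of other lists, the genes named are up to 3 per direction with the largest change among those that passed. Gene positions and exon lengths are from GENCODE on GRCh37, which hg19 shares, and promoters from RefSeq on GRCh38.p14, where the first start listed was used (6 genes had several). Whether the 2 libraries of a group pair across groups was checked by correlating deviations of same-numbered libraries, and 1 of 6 pairs of groups gave a correlation over 0.1.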

Additional observations from a re-analysis of the deposited data

Results flagged for a closer look

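AURKA was the 1 gene of the 55 in which the response to EC359 differed between cells with and without vorinostat by the test of the interaction. The log2 change with EC359 was -0.98 with vorinostat and -0.23 without it, a difference of -0.7542 (adjusted p = 0.0059 by edgeR). In all 16 alternative analyses the difference stayed between -0.74 and -0.85, with adjusted p from 1.3e-06 to 0.053, and in 7 of them, the replicate block and those without a vehicle, vorinostat or combination library, it did not pass 0.01. Both combination libraries, at 104 and 109 CPM, lay below all 6 other libraries. Of all tested genes, 0.482% passed below the sum of the single changes on the log2 scale and 1.62% above it. Beside these shares, 1 gene of 55 does not mark out the set.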

How the results depend on the processing

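No gene of the set changed direction with a passed value in any alternative. Among the values for single genes and comparisons under these alternatives, 5074 kept their side of the threshold, 249 no longer passed and 232 passed only there.

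The number of genes lowered by EC359 (10) was 19 with DESeq2, 17 with a crossed replicate block, 1 in a fit of the 2 groups alone and 23 at an adjusted p under 0.05. In the vorinostat comparison the median was -0.7458 with DESeq2, -0.7441 with RLE scaling and -0.7452 with a filter of CPM over 1 in 2 libraries. In the combination against vehicle it was -1.256 with total counts and -1.215 without the filter, and 2 genes were higher with the crossed replicate block, in the fit of 2 groups and at 0.05. In the combination against vorinostat the median was -0.4552 with DESeq2, -0.4546 with RLE, -0.5073 with total counts and -0.4586 without the filter. There 5 genes were lowered by more than 2-fold with total counts, 33 were lower in the fit of 2 groups, and 1 was higher in that fit, with the crossed block and at 0.05. In the combination against EC359, 2 genes were higher with RLE, total counts, no filter and the fit of 2 groups. For the interaction DESeq2 gave 2 genes lower (AURKA and PRC1) and 2 higher (CDC25B and CDCA2), total counts a median of -0.1541, no filter 1 higher, the replicate block 0 lower, and the crossed block and 0.05 each 2 higher. At 0.05, 27 genes were below all other groups. At least 2 CCAAT matches were found in 44.7% of the promoters.

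The replicate numbers are not shown to pair the libraries, and the plain replicate block changed no count by more than 1.5 times except that interaction. The crossed block was chosen after seeing the data, because same-numbered deviations of combination libraries correlated negatively with those of EC359 (-0.173) and vorinostat (-0.108).

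Leaving out each library in turn, with the single library left assumed to vary like the other groups, gave the following lowest and highest values. EC359 against vehicle gave 1 to 26 genes lower, 1 to 1 by more than 2-fold, 0 to 1 higher and a median of -0.3929 to -0.204. Vorinostat against vehicle gave 31 to 50 genes lower, 13 to 16 by more than 2-fold, 1 to 2 higher and a median of -0.7995 to -0.7573. The combination against vehicle gave 44 to 50 genes lower, 30 to 33 by more than 2-fold, 1 to 2 higher and a median of -1.237 to -1.157, against vorinostat 3 to 33 genes lower, 3 to 4 by more than 2-fold, 0 to 1 higher and a median of -0.483 to -0.4171, and against EC359 35 to 47 genes lower, 20 to 24 by more than 2-fold, 2 to 4 higher and a median of -0.9196 to -0.8218. The interaction gave 0 to 8 genes lower, 0 to 1 by more than 2-fold, 0 to 3 higher and a median of -0.1813 to -0.03853. Between 3 and 30 genes were below all other groups. With 2 libraries a group, changes of several times their SE could fail to pass, as did that of CCNB1 with EC359 (-0.62, SE 0.15).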
